A study of Mus musculus with 2 samples.

Results

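The genes described here are 33 transcripts of the amino acid and endoplasmic reticulum (ER) stress programmes, given as a list of names. They form an ATF4 branch of 16 genes (ATF4, its stress targets, serine and one-carbon enzymes and amino acid transporters) and an ER branch of 17 genes (chaperones, protein disulfide isomerases, unfolded protein response sensors and degradation factors), among 28000 features in the count matrices. All 33 were present in both matrices and had at least 1 UMI in each library. UMIs are unique molecular identifiers, which count each captured RNA molecule once.

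The KO library was from male C57BL/6 mice carrying floxed Tsc1 together with Myh11-CreERT2 and the mT/mG reporter, and the control library was from Tsc1+/+ males of the same strain with the same Myh11-CreERT2 and reporter. Both groups therefore carried the inducible Cre, driven by the smooth muscle myosin heavy chain promoter, received tamoxifen at 1.5 weeks, and were 24 weeks old when thoracic aortas were digested with collagenase and elastase and viable GFP-positive cells were sorted for 10x droplet sequencing. Each genotype was 1 library, and how many animals were pooled for each is not stated in the labels, so that no comparison between genotypes could be tested and all intervals cover counting error only. TSC1 is a subunit of the complex that restrains the growth kinase mTORC1.

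ATF4 is a transcription factor made mainly by regulated translation. When a kinase phosphorylates the initiation factor eIF2, most protein synthesis slows while Atf4 mRNA is translated more, and mTORC1 can also raise ATF4 protein, so the Atf4 transcript need not follow ATF4 activity. Its targets supply amino acids, one-carbon units and glutathione precursors, and include feedback and death regulators. The unfolded protein response of the ER has 3 sensors. PERK acts through eIF2 and ATF4, while ATF6 and IRE1 (through spliced XBP1) induce chaperones, folding enzymes and degradation factors. Smooth muscle cells that make matrix use the same folding machinery for collagens and other secreted proteins. Protein levels, phosphorylation and Xbp1 splicing were not measured in these libraries.

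After keeping cells with at least 5 eGFP UMIs, at least 500 genes and no more than 10% mitochondrial UMIs, 1919 of 2097 KO cells with 30778165 UMIs and 1692 of 2095 control cells with 20011501 UMIs remained. The median depth was 15012 UMIs per KO cell and 11665 per control cell, the median mitochondrial share was 5.73% in KO cells and 4.77% in control cells, and 16 cell barcodes occurred in both libraries. All 7 smooth muscle markers were at 10 CPM (counts per 1000000 UMIs) or more in both libraries, with a summed level of 18310 CPM in KO cells and 37476 CPM in control cells. Fibroblast markers summed to 1030 CPM in KO cells, led by Col1a1, Dcn and Lum, and to 483 CPM in control cells, almost all of it Col1a1. Endothelial markers summed to 11.6 CPM in KO cells and 19.8 CPM in control cells, with Cdh5 and Tek at 0 in both libraries. Tsc1 had 8.55 CPM in KO cells and 9.54 CPM in control cells, and since the reads come from 1 end of the transcript, which may lie outside the deleted part, this level does not check the genotype. The contractile genes took a median 2.76% of the UMIs of a KO cell and 5.90% of those of a control cell.

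Promoters of some members, each with a match to a DNA element known for these programmes, are shown first. Of the genes called higher in KO cells below, only Nupr1 is among them. ATF4, paired with a C/EBP family protein, is known to bind the composite element TGATGNAA, called CARE below. ATF6 with the CCAAT-binding factor NF-Y is known to bind the ER stress response element (ERSE), which is CCAAT and CCACG with any 9 bases between them, or the compact form (ERSE-II), which is ATTGG and CCACG with any 1 base between them, and XBP1 is known to bind TGACGTGG (UPRE). Both strands were searched from 250 bases before to 50 bases after each RefSeq transcription start (GRCm38.p6), which was found for 30 of the 33 genes; Slc7a5, Manf and Atf6 had no entry. The 250 bases before the start are printed 5′ to 3′ on the strand of the gene, with matches in capitals. The amino acid genes are Asns (chr6:7693210-7693459, minus strand), Nupr1 (chr7:126625471-126625720, minus strand) and Slc7a11 (chr3:50443614-50443863, minus strand). The ER genes are Hspa5 (chr2:34771840-34772089, plus strand), Hsp90b1 (chr10:86705445-86705694, minus strand), Canx (chr11:50325674-50325923, minus strand) and Herpud1 (chr8:94386179-94386428, plus strand).
Asns: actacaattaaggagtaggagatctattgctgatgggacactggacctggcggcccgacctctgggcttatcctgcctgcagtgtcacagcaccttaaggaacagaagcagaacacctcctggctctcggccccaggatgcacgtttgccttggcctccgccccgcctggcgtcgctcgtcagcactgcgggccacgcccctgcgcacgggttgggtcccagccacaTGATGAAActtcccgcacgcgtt
Nupr1: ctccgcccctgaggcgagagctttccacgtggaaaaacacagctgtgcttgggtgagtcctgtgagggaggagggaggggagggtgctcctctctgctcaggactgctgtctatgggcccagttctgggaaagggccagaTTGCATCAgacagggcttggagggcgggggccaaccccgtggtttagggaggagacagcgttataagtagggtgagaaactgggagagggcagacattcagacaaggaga
Slc7a11: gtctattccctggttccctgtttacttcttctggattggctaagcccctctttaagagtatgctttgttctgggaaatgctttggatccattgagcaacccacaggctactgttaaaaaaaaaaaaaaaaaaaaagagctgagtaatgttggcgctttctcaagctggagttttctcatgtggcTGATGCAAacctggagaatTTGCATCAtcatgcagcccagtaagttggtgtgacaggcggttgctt
Hspa5: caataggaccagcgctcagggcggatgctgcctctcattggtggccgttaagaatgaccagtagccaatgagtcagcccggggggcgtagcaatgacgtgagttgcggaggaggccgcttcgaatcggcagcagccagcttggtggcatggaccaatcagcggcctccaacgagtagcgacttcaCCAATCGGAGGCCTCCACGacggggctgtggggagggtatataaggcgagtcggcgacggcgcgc
Hsp90b1: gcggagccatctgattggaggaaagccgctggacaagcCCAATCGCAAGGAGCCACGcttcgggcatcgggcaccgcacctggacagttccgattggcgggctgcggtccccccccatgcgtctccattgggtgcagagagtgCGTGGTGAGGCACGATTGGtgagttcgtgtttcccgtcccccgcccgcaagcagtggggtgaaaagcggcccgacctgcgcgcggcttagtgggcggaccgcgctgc
Canx: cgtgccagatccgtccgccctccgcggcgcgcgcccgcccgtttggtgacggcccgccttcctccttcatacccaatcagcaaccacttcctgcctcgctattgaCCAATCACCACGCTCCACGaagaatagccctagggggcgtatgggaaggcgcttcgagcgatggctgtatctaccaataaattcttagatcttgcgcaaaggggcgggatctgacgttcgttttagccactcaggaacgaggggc
Herpud1: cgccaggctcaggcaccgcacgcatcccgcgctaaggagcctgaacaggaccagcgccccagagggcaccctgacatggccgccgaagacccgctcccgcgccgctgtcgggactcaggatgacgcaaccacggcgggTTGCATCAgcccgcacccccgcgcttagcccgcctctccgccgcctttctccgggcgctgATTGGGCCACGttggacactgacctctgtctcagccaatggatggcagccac

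In Asns the capitals mark 1 CARE whose first printed base lies 23 bases before the start, in Nupr1 1 CARE read on the other strand at 110 bases before it, and in Slc7a11 a pair of CAREs, 1 on each strand. Hspa5 and Canx show 1 ERSE each and Hsp90b1 shows 2 ERSEs. Herpud1 shows a CARE followed by an ERSE-II, and it was the 1 window in the table to hold a CARE together with an ERSE or ERSE-II. Matches to CARE stood in 5 of 15 ATF4 branch genes (Asns, Chac1, Trib3, Nupr1 and Slc7a11) and in 1 of 15 ER branch genes (Herpud1), against 4.51% of all 27025 genes with a window. ERSE stood in 6 of 15 ER branch genes (Hspa5, Hsp90b1, Pdia6, Calr, Canx and Creld2) and in 0 of 15 ATF4 branch genes, against 0.137% of genes. ERSE-II stood in Dnajb11 and Herpud1, against 0.0444% of genes, and UPRE in no member, against 0.714%. Among the windows of the listed genes, ERSE and ERSE-II were thus found in the ER branch alone. Of the genes called higher in KO cells below, Phgdh, Mthfd2, Sesn2 and Sdf2l1 held no match to any of these elements, and Manf had no window. A match describes the letters of the window and not binding.

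Of the ATF4 branch, 10 of 16 genes reached 10 CPM in at least 1 library. Among these, 4 were at least 1.5-fold higher in KO cells (Nupr1, Phgdh, Mthfd2 and Sesn2) and 0 were lower, with a median log2 ratio of 0.56. Sesn2 and Psph reached 10 CPM in the KO library alone, so the minimum admitted them through the library where they were higher. The count and the median rest in part on these genes. Across all genes at 10 CPM, 13.2% were at least 1.5-fold higher in KO cells and 11.4% were lower, and the median log2 ratio was 0.00. Of the ER branch, 16 of 17 genes reached 10 CPM, 3 were higher (Sdf2l1, Dnajb11 and Manf) and 0 were lower, with a median log2 ratio of -0.01. The ATF4 branch thus lay above the centre of all genes and the ER branch at it, while the share of ER branch genes past 1.5-fold was close to that of all genes. Just short of 1.5-fold were Ddit4 (1.49), Psph (1.46) and Canx (1.45). With every member counted at any level, the medians were 0.65 for the 16 genes and -0.03 for the 17.

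**Figure D1:**
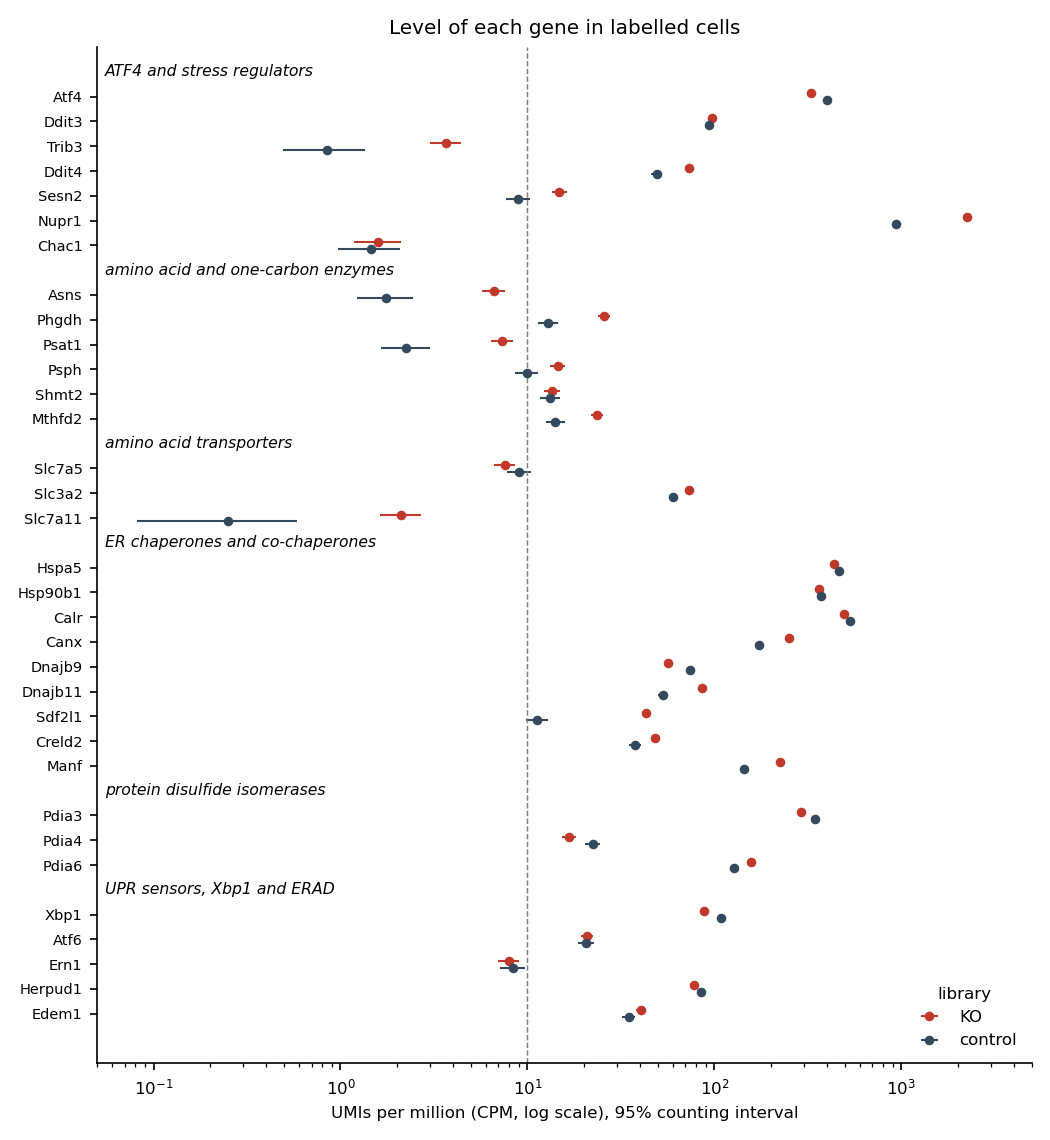
Level of each of the 33 genes in CPM (log axis) over all labelled cells of the KO library (red) and the control library (dark blue), in groups by role, with 95% counting intervals; the dashed line marks 10 CPM. Trib3, Asns, Psat1 and Slc7a11 sit below the line with KO points far right of control points, while Hspa5, Hsp90b1 and Calr nearly coincide.

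Atf4 itself was not higher. It had 327.5 CPM in KO cells (95% interval 321 to 334) and 401.7 CPM in control cells (393 to 411), a ratio of 0.82 (0.79 to 0.84). Counted per cell in place of as CPM, the order turned, with a mean of 5.25 UMIs in a KO cell and 4.75 in a control cell, since KO cells held 1.36 times as many UMIs on average. Fewer molecules as a share of the RNA and a larger RNA content of the cell, or a deeper library, cannot be told apart here. Ddit3, which encodes the death-promoting transcription factor CHOP, had 97.3 CPM in KO cells and 93.0 CPM in control cells, a ratio of 1.05 (0.99 to 1.11). Its locus lies opposite Mars and overlaps a second gene model of the same name, so its reads may be split or shared. On opposite strands Psph also overlaps Cct6a, Shmt2 overlaps Ndufa4l2, Pdia3 overlaps Catsper2 and Pdia6 overlaps Atp6v1c2, and whether the counting used strand is not stated. Other members overlap gene models on the same strand, among them Mthfd2 with Gm43890, Sesn2 with Gm12981 and Hsp90b1 with Gm15344 and Gm25745.

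Nupr1, a small chromatin-associated stress protein, was the regulator with the most UMIs behind its difference. It had 2236 CPM in KO cells and 939 CPM in control cells, a ratio of 2.38 (2.34 to 2.42), and 99.8% of KO cells and 98.0% of control cells held at least 1 UMI. Its 10 highest cells held 4.21% of its KO UMIs and 3.70% of its control UMIs, so the level was spread over the cells of both libraries. Trib3 encodes a pseudokinase that restrains AKT and ATF4 signalling. It had 3.67 CPM in KO cells (113 UMIs) and 0.85 CPM in control cells (17 UMIs), a ratio of 4.32 (2.58 to 7.68). Both levels were under 10 CPM, and 38.9% of the KO UMIs came from 10 cells.

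Sesn2 and Ddit4 encode stress-induced inhibitors of mTORC1. Sesn2 had 14.8 CPM in KO cells and 8.89 CPM in control cells, a ratio of 1.66 (1.39 to 1.99). Ddit4 had 73.0 CPM in KO cells and 49.0 CPM in control cells, a ratio of 1.49 (1.38 to 1.61). Chac1, which degrades glutathione and is a frequently used ATF4 readout, stood apart from these. It had 1.59 CPM in KO cells and 1.45 CPM in control cells, and its ratio of 1.10 had an interval from 0.68 to 1.80.

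The 6 amino acid and one-carbon enzymes summed to 91.0 CPM in KO cells and 54.2 CPM in control cells, a ratio of 1.68 (1.56 to 1.80). Phgdh, Psat1 and Psph catalyse the 3 successive steps from a glycolytic intermediate to serine. Phgdh had 25.6 CPM in KO cells and 12.9 CPM in control cells, a ratio of 1.98 (1.72 to 2.29). Psat1 had 7.31 CPM in KO cells and 2.25 CPM in control cells, a ratio of 3.25 (2.35 to 4.58). Psph had 14.5 CPM in KO cells and 9.94 CPM in control cells, a ratio of 1.46 (1.23 to 1.73). The ratios of all 3 steps lay above 1, as did those of 4049 of the 8113 genes at 10 CPM. Psat1 was under 10 CPM in both libraries, and Psph reached it in the KO library alone.

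Asns, which makes asparagine from aspartate and glutamine, had 6.60 CPM in KO cells (203 UMIs) and 1.75 CPM in control cells (35 UMIs), a ratio of 3.77 (2.62 to 5.56). Shmt2 and Mthfd2 pass serine carbon into the mitochondrial folate cycle, and they differed from each other. Mthfd2 had 23.5 CPM in KO cells and 14.1 CPM in control cells, a ratio of 1.66 (1.45 to 1.92). Shmt2 had 13.5 CPM in KO cells and 13.2 CPM in control cells, a ratio of 1.02 (0.88 to 1.20).

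The transporters gave 3 different pictures. Slc7a5 and Slc3a2 encode the light and heavy chain of a large neutral amino acid exchanger, and Slc3a2 also pairs with the cystine carrier encoded by Slc7a11. Slc3a2 had 73.5 CPM in KO cells and 60.3 CPM in control cells, a ratio of 1.22 (1.14 to 1.31). Slc7a5 had 7.57 CPM in KO cells and 9.04 CPM in control cells, a ratio of 0.84 (0.69 to 1.02). Slc7a11 had 65 UMIs in KO cells and 5 in control cells, or 2.11 CPM in KO cells and 0.25 CPM in control cells, a ratio of 8.45 (3.44 to 26.9). Only 1.67% of KO cells held an Slc7a11 UMI, 64.6% of its UMIs came from 10 of them, and without the 640 KO cells lowest in contractile genes its ratio was 1.41. Its value therefore describes a few cells.

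**Figure D2:**
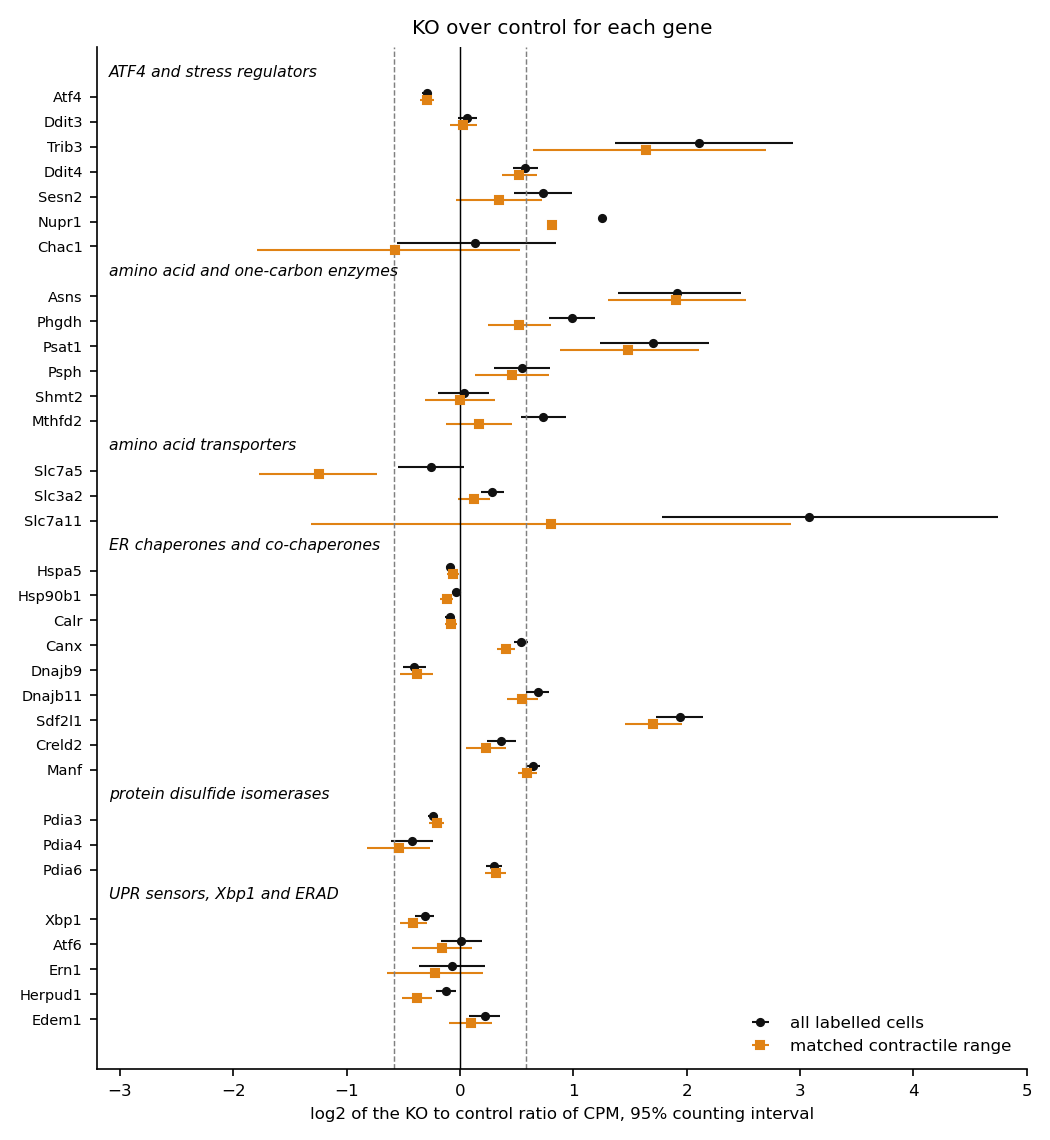
Log2 of the KO to control ratio for each gene over all labelled cells (black circles) and over cells in the same range of contractile share (orange squares), with 95% counting intervals; dashed lines mark 1.5-fold in either direction. Sdf2l1, Asns, Psat1 and Trib3 lie to the right in both comparisons, whereas Slc7a11 and Mthfd2 move toward 0 and Slc7a5 lies to the left in the matched range.

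Among the ER chaperones, the abundant housekeeping members had similar levels in both libraries. Hspa5 encodes BiP, the Hsp70 of the ER lumen whose release from the sensors starts the response. It had 435 CPM in KO cells (428 to 442) and 462 CPM in control cells (453 to 471), a ratio of 0.94 (0.92 to 0.97). Hsp90b1, which encodes GRP94, the Hsp90 of the ER, had 364 CPM in KO cells and 371 CPM in control cells, a ratio of 0.98 (0.95 to 1.01). Calr, the soluble lectin chaperone calreticulin, had 496 CPM in KO cells and 529 CPM in control cells, a ratio of 0.94 (0.92 to 0.96). Each of these 3 lay slightly below 1 in CPM and above 1 when counted per cell, at 1.28, 1.33 and 1.27. Canx, the membrane-bound partner of calreticulin, differed from it. It had 250 CPM in KO cells and 172 CPM in control cells, a ratio of 1.45 (1.40 to 1.51).

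Sdf2l1 had the highest ratio of the ER branch. Its protein works with ERdj3 in the ER lumen to keep unfolded chains from aggregating, and the gene is a known ER stress target. Sdf2l1 (chr16:17130138-17132383, minus strand) had 43.3 CPM in KO cells (41.0 to 45.7) and 11.3 CPM in control cells (9.87 to 12.9), a ratio of 3.83 (3.33 to 4.43). It was detected in 41.8% of KO cells and 11.6% of control cells. After every cell was thinned to 5000 UMIs, the shares were 18.2% of KO cells (16.5 to 20.1, exact binomial interval) and 5.43% of control cells (4.37 to 6.66). The share in unlabelled cells of the control library at that depth was 35.4%, above both, so the thinned shares are given as values and not read as a difference in expression. Dnajb11, which encodes ERdj3 itself, had 85.7 CPM in KO cells and 53.3 CPM in control cells, a ratio of 1.61 (1.50 to 1.73). Manf, a secreted ER stress-induced neurotrophic factor, had 225 CPM in KO cells and 144 CPM in control cells, a ratio of 1.56 (1.50 to 1.63). The Manf gene overlaps Rbm15b on the same strand, so reads there may not be unique to it. Creld2, another stress-induced ER protein, had 48.2 CPM in KO cells and 37.5 CPM in control cells, a ratio of 1.29 (1.18 to 1.41). Dnajb9, the ERdj4 co-chaperone that recruits BiP to IRE1 and is a classic XBP1 target, was on the other side. It had 56.2 CPM in KO cells and 74.3 CPM in control cells, a ratio of 0.76 (0.71 to 0.81), which became 1.03 when counted per cell.

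The protein disulfide isomerases, which form and shuffle disulfide bonds, summed to 465 CPM in KO cells and 494 CPM in control cells, a ratio of 0.94 (0.92 to 0.97). Pdia6 had 156 CPM in KO cells and 127 CPM in control cells, a ratio of 1.23 (1.17 to 1.29). Pdia3, which serves the lectin chaperones, had 292 CPM in KO cells and 345 CPM in control cells, a ratio of 0.85 (0.82 to 0.87). Pdia4 had 16.7 CPM in KO cells and 22.4 CPM in control cells, a ratio of 0.75 (0.66 to 0.85). None of the 3 passed 1.5-fold.

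The sensors and the genes of ER-associated degradation (ERAD, which returns misfolded chains to the cytosol) summed to 234 CPM in KO cells and 257 CPM in control cells, a ratio of 0.91 (0.88 to 0.95). Atf6 had 20.8 CPM in KO cells and 20.7 CPM in control cells, a ratio of 1.01 (0.89 to 1.14). Ern1, which encodes IRE1, had 7.96 CPM in KO cells and 8.35 CPM in control cells, a ratio of 0.95 (0.78 to 1.17). The third sensor gene, Eif2ak3, which encodes PERK, is outside the 33 genes and was added after its values were seen. It had 7.57 CPM in KO cells (233 UMIs) and 3.5 CPM in control cells (70 UMIs), a ratio of 2.16 (1.65 to 2.87), which was 1.40 in the matched contractile range described below. The transcripts of Atf6 and Ern1 were thus near equal in the libraries and that of Eif2ak3, also under 10 CPM, was not. Xbp1 had 87.6 CPM in KO cells and 109 CPM in control cells, a ratio of 0.81 (0.76 to 0.85). Spliced and unspliced Xbp1 were not separated in the counts. Herpud1, a membrane component of the degradation machinery, had 77.4 CPM in KO cells and 84.4 CPM in control cells, a ratio of 0.92 (0.86 to 0.98). Edem1, which extracts misfolded glycoproteins from the folding cycle, had 40.5 CPM in KO cells and 34.8 CPM in control cells, a ratio of 1.16 (1.06 to 1.28). None of the 5 listed genes in this group passed 1.5-fold.

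Summed by role, the difference between the branches was mostly Nupr1. The 16 ATF4 branch genes together had 2928 CPM in KO cells and 1618 CPM in control cells, a ratio of 1.81 (1.79 to 1.83). Without Nupr1 and Atf4 the other 14 had 365 CPM in KO cells and 277 CPM in control cells, a ratio of 1.32 (1.27 to 1.36). The 17 ER branch genes had 2702 CPM in KO cells and 2605 CPM in control cells, a ratio of 1.04 (1.03 to 1.05). Among 157 genes outside the list with a CARE and at least 10 CPM, 20 were 1.5-fold higher and 20 lower in KO cells. These were 12.7% each, against 13.2% higher and 11.4% lower of all genes, and the median log2 ratio was -0.02. Genes outside the list with a CARE were thus called about as often as all genes.

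Contractile state was measured as the share of a cell's UMIs from 20 contractile genes, and each library was split at its own cut points into low, intermediate and high classes of near-equal size. The KO classes held 640, 639 and 640 cells with median shares of 0.838%, 2.76% and 5.06%, and the control classes held 564 cells each with medians of 4.15%, 5.90% and 7.61%. These are ranges of a score and not cell types, and 129 and 125 KO cells and 137 and 132 control cells lay within 0.2 percentage points of the lower and upper cut. The low class of KO cells also had the highest fibroblast marker sum, at 2139 CPM against 299 CPM in the high class. In control cells these sums were 678 CPM in the low class and 362 CPM in the high class. The median depth of control cells was 9813 UMIs in the low class and 13663 in the high class, and that of KO cells 16075 and 14938 UMIs. The pericyte markers Rgs5, Kcnj8 and Abcc9 also moved with class and library. They summed to 422 CPM in the low and 271 CPM in the high class of KO cells, and to 1582 and 363 CPM in those of control cells, where Rgs5 alone had 1376 and 239 CPM. Over all labelled cells they summed to 364 CPM in KO cells and 836 CPM in control cells, with Rgs5 at 48.0 CPM in KO cells and 677 CPM in control cells. The part of fibroblast markers, pericyte markers and depth in the results by library and class was not tested.

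Within KO cells, 5 of 11 ATF4 branch genes at 10 CPM were at least 1.5-fold higher in the low than in the high class and 0 were lower, with a median log2 ratio of 0.56. Across all genes, 11.8% were higher and 8.74% lower. The 5 were Slc7a5 (11.3 CPM in the low and 3.88 CPM in the high class), Sesn2 (20.1 and 9.88 CPM), Mthfd2 (29.8 and 15.7 CPM), Nupr1 (2925 and 1613 CPM) and Phgdh (32.8 and 19.0 CPM). Their ratios were 2.91, 2.03, 1.90, 1.81 and 1.73. Slc7a5 and Sesn2 reached 10 CPM in the low but not the high class, so the minimum admitted them through the class where they were higher. Asns did not show this order, with 6.14 CPM in the low, 6.39 CPM in the intermediate and 7.27 CPM in the high class. In the ER branch 0 of 16 genes passed 1.5-fold in either direction, and the median log2 ratio was 0.26. The widest ER ratios within KO cells were Sdf2l1 at 1.48 (1.30 to 1.69) and Herpud1 at 1.44 (1.30 to 1.59).

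Within control cells, 3 of 11 ATF4 branch genes were higher in the low than in the high class, against 15.0% of all genes, and 0 were lower, against 1.82%. These were Sesn2 (13.3 and 4.91 CPM), Ddit4 (82.7 and 32.0 CPM) and Slc7a5 (11.7 and 5.84 CPM), with ratios of 2.71, 2.59 and 2.01. Sesn2 and Slc7a5 again reached 10 CPM in the low but not the high class. Nupr1 had 995 and 914 CPM and Phgdh 10.8 and 13.9 CPM in the low and high control classes, ratios of 1.09 (1.05 to 1.13) and 0.78 (0.56 to 1.08), against 1.81 and 1.73 in KO cells. In the ER branch 3 of 16 genes passed 1.5-fold, Atf6 (1.88), Dnajb9 (1.62) and Creld2 (1.61), and 0 were lower. The median log2 ratio was 0.41 for the ATF4 branch, 0.34 for the ER branch and 0.18 for all genes, so the centre of all genes was also above 0. Whether the class effect differed between the libraries could not be tested with 1 library each.

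**Figure D3:**
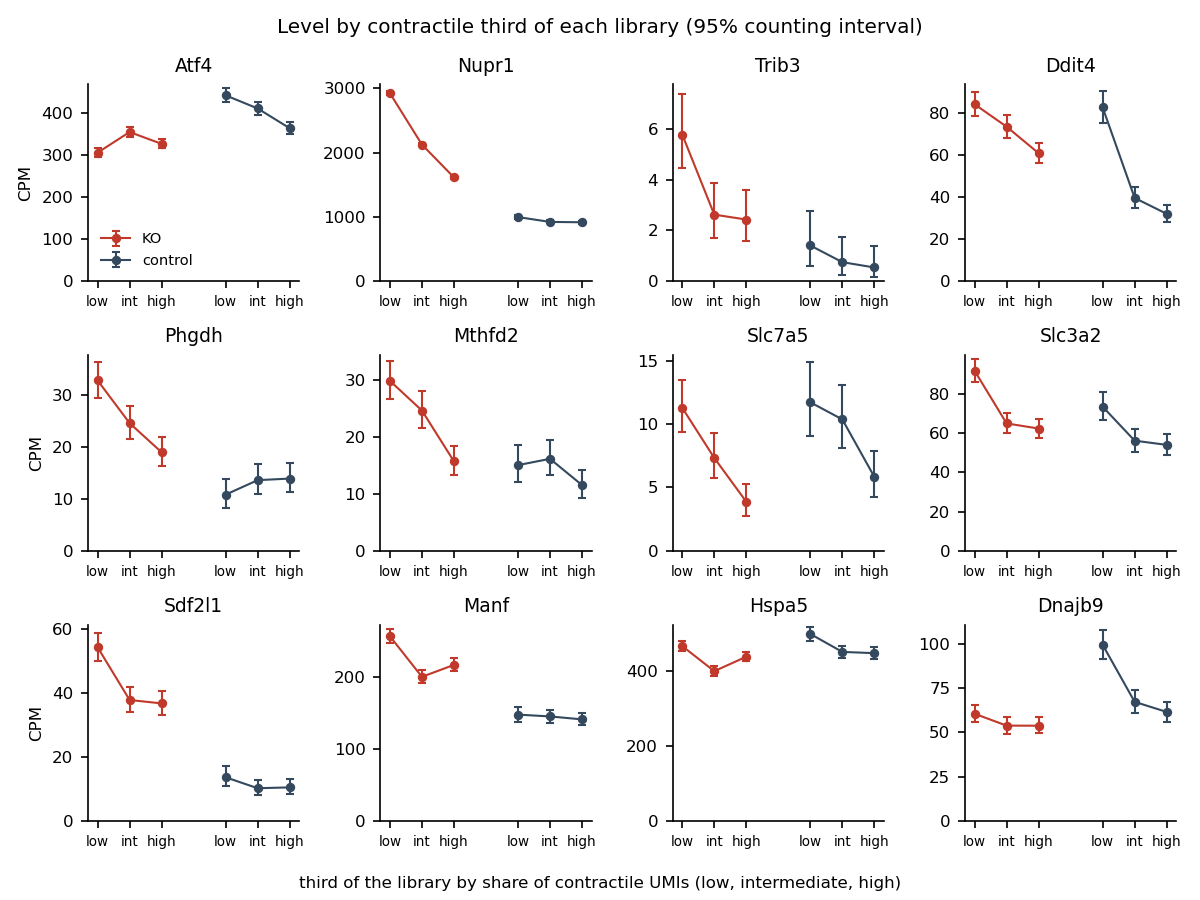
Level in CPM of 12 genes in the low, intermediate and high contractile classes of KO cells (red, left) and control cells (dark blue, right), with 95% counting intervals. Nupr1 has 2925 CPM in the low and 1613 CPM in the high class of KO cells, and 995 and 914 CPM in those of control cells, while Ddit4 has 82.7 CPM in the low and 32.0 CPM in the high class of control cells.

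KO and control cells were then compared over 1 range of contractile share, 3.78% to 10.1%, which held 640 KO cells (the high class) and 1482 control cells. Their median shares were 5.06% and 6.12%, so the match was of range and not exact. In this range 1 of 9 ATF4 branch genes at 10 CPM was 1.5-fold higher in KO cells, against 9.51% of all genes, and 0 were lower, against 10.2%. The median log2 ratio was 0.17. That gene was Nupr1, with 1613 CPM in KO cells and 921 CPM in control cells, a ratio of 1.75 (1.71 to 1.79). Phgdh (1.44), Sesn2 (1.27) and Mthfd2 (1.12) no longer passed. Among the rarer transcripts, the ratios of Asns (3.74, 2.47 to 5.76), Psat1 (2.80, 1.84 to 4.32) and Trib3 (3.12, 1.56 to 6.49) stayed above 2. That of Trib3 rested on 25 KO and 14 control UMIs. Chac1 (0.67, 0.29 to 1.44) and Slc7a11 (1.75, 0.40 to 7.59) were below 2. Slc7a5 had 3.88 CPM in KO cells and 9.16 CPM in control cells, a ratio of 0.42 (0.29 to 0.60).

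In the ER branch 2 of 16 genes passed in the matched range and 0 were lower. Sdf2l1 had 36.7 CPM in KO cells and 11.3 CPM in control cells, a ratio of 3.26 (2.74 to 3.88). Manf had 216 CPM in KO cells and 143 CPM in control cells, a ratio of 1.51 (1.43 to 1.60). Dnajb11, at 1.47, was just short, and the branch median was -0.07. Across bins of 1 percentage point of contractile share with at least 20 cells, Sdf2l1 lay between 34.4 and 56.5 CPM in KO cells. In control cells it lay between 6.61 and 13.8 CPM. Bins were made for a few chosen genes, and how many of all genes separate in this way was not counted. Nupr1 in KO cells was 3033 CPM at 0 to 1% and 1211 CPM at 7 to 8%, while in control cells it lay between 822 and 1142 CPM across all bins. Hspa5 overlapped between the libraries, with 391 to 493 CPM in KO cells and 412 to 522 CPM in control cells.

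**Figure D4:**
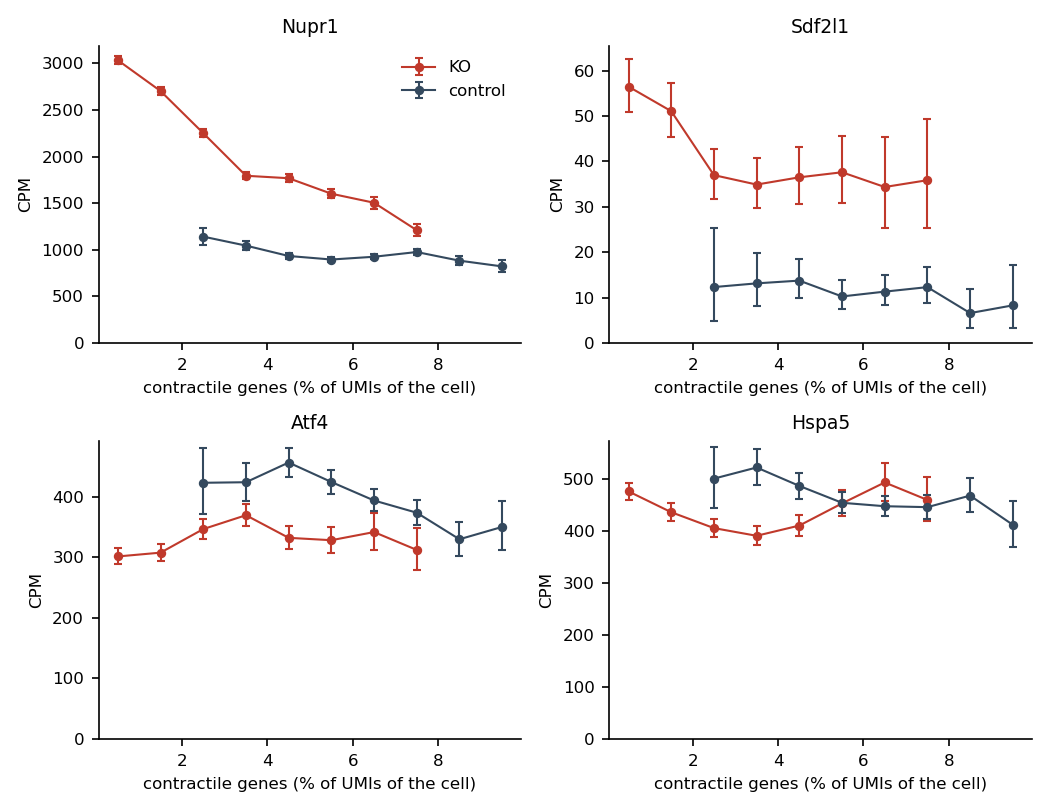
Level in CPM against contractile share in bins of 1 percentage point for KO (red) and control (dark blue) cells, with 95% counting intervals and bins of at least 20 cells. Nupr1 is highest in KO cells with the least contractile RNA, Sdf2l1 lies higher in the KO than in the control bins shown, and Atf4 and Hspa5 are not higher in KO cells over most of the range.

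Other genes of these pathways were taken from lists of names. Of 20 other ATF4 target genes at 10 CPM, 6 were at least 1.5-fold higher in KO cells and 4 lower, with a median log2 ratio of -0.11. These were 30% and 20% of the list, against 13.2% and 11.4% of all genes. Gdf15, a secreted stress cytokine, had 198 CPM in KO cells and 29.8 CPM in control cells, a ratio of 6.65 (6.11 to 7.24). The transcription factor Atf5 (1.75) and the growth factor Vegfa (1.64) were also higher. Vegfa and another of the 6 reached 10 CPM in the KO library alone. Atf3, a stress-induced repressor, had 696 CPM in KO cells and 1300 CPM in control cells, a ratio of 0.535 (0.525 to 0.545). The cytosolic folate enzyme Mthfd1 had 10.6 CPM in KO cells and 23.8 CPM in control cells, a ratio of 0.44 (0.38 to 0.51). Over all labelled cells the wider target list thus moved in both directions. In the matched contractile range 1 of 19 genes of this list was higher, Gdf15 at 4.60. There 3 were lower, and the shares of all genes were 9.51% higher and 10.2% lower. Atf5 was at 1.35 and Vegfa at 1.28 in that range.

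The aminoacyl-tRNA synthetases, many of which are known ATF4 targets, gave 0 higher and 0 lower of 20, against 13.2% and 11.4% of all genes. The synthetases had a median log2 ratio of -0.12. Their highest ratios were Wars at 1.36 and Nars at 1.34, and their lowest was Qars at 0.76. Among 13 genes of the eIF2 kinases, eIF2, its exchange factor and its phosphatase, the kinase PKR gene Eif2ak2 was higher (18.4 CPM in KO cells and 11.4 CPM in control cells, ratio 1.61) and the phosphatase subunit Ppp1cb was lower (297 CPM in KO cells and 452 CPM in control cells, ratio 0.66). The median of this list was -0.11. Of its genes 7.69% were called in each direction, against 13.2% higher and 11.4% lower of all genes. In the matched contractile range 0 of 12 were higher and 0 lower, with Eif2ak2 at 1.29 and Ppp1cb at 0.79.

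Among 30 other ER folding and degradation genes, 2 were higher and 2 lower, with a median log2 ratio of 0.06. These were 6.67% each, against 13.2% higher and 11.4% lower of all genes. The lectin Os9, which hands misfolded glycoproteins to degradation, had 64.3 CPM in KO cells and 34.3 CPM in control cells, a ratio of 1.87 (1.72 to 2.04), and the co-chaperone Dnajc1 had a ratio of 1.75. Creb3l1, a membrane-bound transcription factor known from bone for its role in collagen secretion, had 21.5 CPM in KO cells and 44.3 CPM in control cells, a ratio of 0.49 (0.44 to 0.54), and the disulfide reductase Dnajc10 had a ratio of 0.66. Of 28 translocon and glycosylation genes, the channel subunit Sec61a1 (1.68) and Tram1 (1.51) were higher and 0 were lower, with a median of 0.15. The higher ones were 7.14% of this list, against 13.2% of all genes. In the matched contractile range 0 of 28 were higher and 0 lower, with Sec61a1 at 1.34 and Tram1 at 1.12. Of 12 collagen-folding genes, 0 were higher and Tmem38b (0.61) and P4ha2 (0.63) were lower, with a median of -0.41. The lower ones were 16.7% of this list, against 11.4% of all genes. Serpinh1, the collagen chaperone HSP47, had 537 CPM in KO cells and 794 CPM in control cells, a ratio of 0.68 (0.66 to 0.69). ER genes outside the list thus lay on both sides of 1, and the collagen-specific ones mostly below it. In the matched contractile range 2 of 30 ER folding and degradation genes were higher and 2 lower. Of 12 collagen-folding genes 0 were higher and 3 lower there. The shares of all genes in that range were 9.51% higher and 10.2% lower.

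The digestion that frees the cells is itself known to induce stress transcripts, and a list of 26 heat shock and immediate early genes also differed between the libraries. Of these, 10 were lower in KO cells and 0 higher, with a median log2 ratio of -0.42. The lower ones were 38.5% of the list, against 11.4% of all genes, and 9 of 26 were lower in the matched contractile range. Hspa1a had 260 CPM in KO cells and 1171 CPM in control cells, and Fos had 2541 CPM in KO cells and 5103 CPM in control cells. The heat shock genes are a cytosolic programme, distinct from both branches described above. The part of this difference in the values of Atf3, Ddit3, Ddit4 and the ER genes was not tested.

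**Figure D5:**
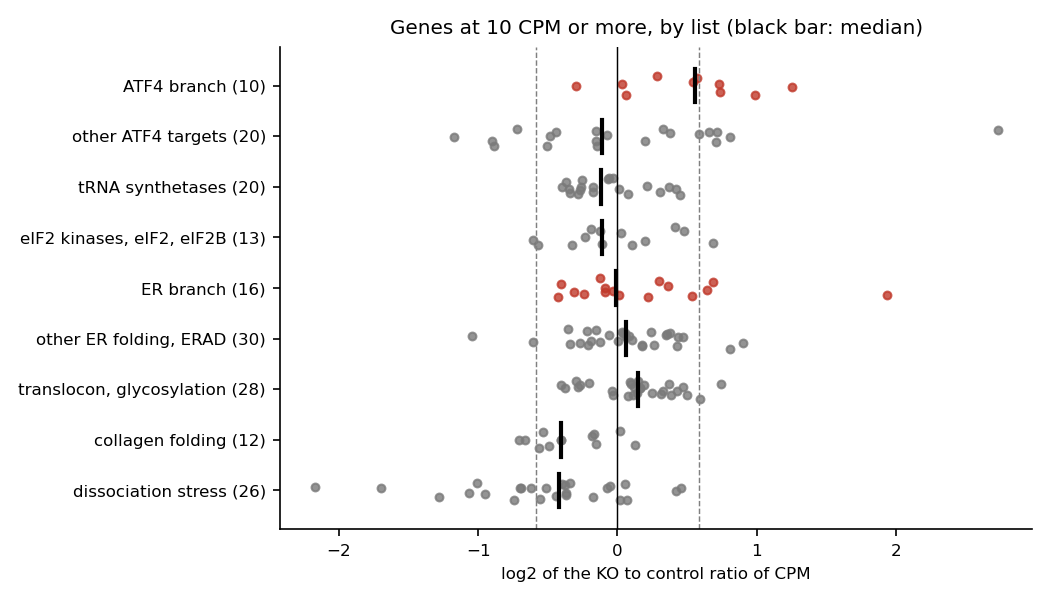
Log2 of the KO to control ratio of every gene at 10 CPM or more, by list, with the list's median as a black bar; red points are the 33-gene list's members, grey points the other lists, and dashed lines mark 1.5-fold. The ATF4 branch median (0.56) stands to the right of all other lists, and the collagen folding (-0.41) and dissociation stress (-0.42) medians to the left.

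At the level of single cells, the rarer ATF4 targets were seen in few cells of either library. After thinning to 5000 UMIs, which left out 17 KO and 90 control cells, Asns was detected in 2.37% of KO cells (1.73 to 3.15) and 0.687% of control cells (0.343 to 1.23). Psat1 was detected in 3.00% of KO cells (2.28 to 3.87) and 0.749% of control cells (0.388 to 1.30), and without thinning these shares were 9.85% of KO cells and 2.60% of control cells. In the 65 unlabelled cells described next, Asns was detected in 0 (exact binomial interval up to 5.52%), and Psat1 in 6.15% (1.70 to 15.0), above both labelled shares. Ddit3 was detected in 34.2% of KO cells and 34.7% of control cells. Unlabelled cells of the control library with 0 eGFP UMIs had a median of 3750 UMIs, and 65 of 330 were deep enough for thinning. Among those 65 cells Nupr1 was detected in 21.5%, against 99.2% of KO and 94.3% of control labelled cells. These genes are active in most cell types, so no cell type in the libraries gives a level for free RNA, and shares at or below those of the unlabelled cells are not read as differences in expression.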

How the data were processed

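The deposited matrices hold raw UMI counts per gene and cell for 28000 features, made with bcl2fastq, Cell Ranger and Seurat 2.0 on mm10, per the submitters' processing notes. For cell calling, strand use in counting and the other tools' versions, no source used here says more. A further deposited table holds the authors' averages by cluster, which sum to 10000 per column.

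Here counts were summed over cells and divided by the library's total (CPM). Each KO to control ratio has a 95% interval from the exact binomial distribution of the KO share of both counts, levels have exact Poisson intervals and shares have Clopper-Pearson intervals, which cover counting error only. A gene was called higher or lower at a ratio of 1.5 or its inverse, with at least 10 CPM in 1 library. The limit that 0 UMIs allow (3 counts) was 0.0975 CPM in KO cells and 0.150 CPM in control cells. With 1 library per genotype no test was run.

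All 33 genes could be named. Of each other list, the rule named the 3 highest and 3 lowest ratios at 10 CPM or more and any changed 2-fold, and marker genes of the cell type lists. The gene lists and members were chosen with earlier results of these data known. No doublet caller was run, and an alternative left out the 2% of cells with most UMIs. Gene positions came from GENCODE M21 and promoters from RefSeq (GRCm38.p6). On simulated Poisson counts for the KO to control comparison, intervals held the true ratio for 95.7% of 7313 genes with no change. All 50 genes at each of 0.5-fold, 2-fold and 3-fold were called. The intervals assume Poisson counts, so this coverage was fixed by the setting and checks the computation only. The simulation held no spread between cells or libraries beyond counting error. Python 3.11.15, numpy 2.4.6, pandas 2.3.3 and scipy 1.17.1 were used.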

Additional observations from a re-analysis of the deposited data

How the results depend on the processing

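No paired analysis was possible because each genotype was 1 library and the labels give no replicate numbers. Depth differs between the libraries, genes under 10 CPM rest on few UMIs, and a library cannot be told apart from its genotype. With mean UMIs per cell in place of CPM the median log2 ratio of all genes was 0.44, 88.9% of calls were higher against 53.6% with CPM, and 36.4% of all genes were higher, beside 7 of 10 in the ATF4 branch (median 1.0) and 7 of 16 in the ER branch (median 0.43). This change multiplies every ratio by the same 1.36, so the distance of the branch medians from that of all genes could not change. With contractile, mitochondrial and ribosomal protein genes out of the denominator, 43.4% of calls were higher and the median of all genes was -0.10. There 4 ATF4 and 2 ER branch genes were higher, against 11% of all genes. Without the low contractile class of KO cells, 2 ATF4 branch genes (Nupr1 1.98, Phgdh 1.68) and 1 ER branch gene (Sdf2l1 3.30) were higher, against 11% of all genes. Without cells holding a UMI of Dlx5, Dlx6 or Msx2 the ER branch median was 0.11. For the ATF4 branch, 8 of 15 genes were higher with a minimum of 2 CPM, 8 of 16 with none and 1 of 5 with 50 CPM (median 0.29), against 15.6%, 20.7% and 12.1% of all genes. Asns, Trib3 and Slc7a11 reached 2 CPM in the KO library alone, so that minimum admitted them through the library where they were higher. At 2-fold 1 gene was higher in each branch, against 6.28% of all genes. At 5/4-fold 6 ATF4 and 5 ER branch genes were higher, against 24.1%, and 0 ATF4 and 2 ER branch genes lower, against 23% of all genes. With the KO cut points applied to control cells, 1 ATF4 branch gene of 6 was lower and 10 ER branch genes of 14 were higher in the low class, with an ER median of 0.78 and 52.6% of all genes higher, but that class held 3 cells. In the matched range with intermediate and high KO cells together, 2 ATF4 and 1 ER branch genes were higher, against 10.9% of all genes. The cause of these shifts was not tested. Of the single-gene ratios under the alternatives, 330 stayed within the counting interval of the reported ratio, 99 left it, and 0 called ratios reversed. Thinned to 3000 UMIs, 60 shares of cells left the interval they had at 5000 UMIs and 6 did not. An alternative chosen after seeing the data left out the 10 cells of each library highest in the ATF4 branch. It gave 5 ATF4 and 3 ER branch genes higher, against 13.1% of all genes, with medians of 0.57 and -0.02. The cells were picked by the values of the branch itself, so these counts are no separate support.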

Other observations

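Cells within a library differed widely in the ATF4 branch. Summed over the 14 genes other than Atf4 and Nupr1, the median cell had 307 CPM in the KO library and 244 CPM in the control library, and the highest cell had 6422 CPM in the KO library and 1730 CPM in the control library. Above 2000 CPM lay 4 KO cells and 0 control cells, a limit set after the values were seen. The highest KO cell had 16661 UMIs and a contractile share of 0.174%, the lowest of its library. The highest cell held 152 UMIs of Hspa5, 59 of Slc3a2, 18 of Dnajb9, 13 of Ddit3 and 10 of Trib3, so that both branches were high in that cell. The second-highest held 3 UMIs of Hspa5 and 4 each of Slc7a11 and Trib3. Trib3 and Asns were detected together in 21 KO cells and 2 control cells.

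Cells with 2 or more UMIs of the homeobox genes Dlx5, Dlx6 or Msx2 numbered 113 in the KO library and 256 in the control library, and were set against cells of the same library with 0 such UMIs. In the control library the ER chaperones were higher in these cells, with Hspa5 at 626 CPM in cells with these genes and 428 CPM in cells without, Calr at 750 CPM with and 483 CPM without, and Hsp90b1 at 527 CPM with and 342 CPM without. Ddit4 had 114 CPM with and 36.2 CPM without. In the KO library Hspa5 had 472 CPM with and 433 CPM without, Calr 539 CPM with and 493 CPM without, and Ddit4 91.1 CPM with and 71.2 CPM without. Slc7a11 had 13.3 CPM with and 1.34 CPM without in the KO library. None of these differences was tested, and the depth of the cells set against each other was not matched.

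In the authors' deposited table, 9 of 16 columns had at least 10 counts of eGFP per 10000, 5 of the KO library and 4 of the control library. In the authors' deposited table Sdf2l1 was between 0.230 and 0.692 in the KO columns and between 0 and 0.142 in the control columns. How many of all genes separate in this way was not counted. Nupr1 in the authors' deposited table was between 12.6 and 26.0 in the KO columns and between 8.56 and 16.5 in the control columns, which overlap. The columns come from the same libraries, so they are no independent support, and which cells and how many each averages is not stated there.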
